A study of Mus musculus with 12 samples.

Results

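The nuclear genes that encode the subunits of the oxidative phosphorylation machinery were followed in gonadal white adipose tissue (gWAT), the fat pad that lies along the epididymis in male mice. The members are the protein-coding genes of the deposited count table whose symbols begin with the family names of complexes I to V (Nduf a, b, c, s or v with a number, Sdha to Sdhd, Uqcr, Cox4 to Cox8, Atp5) together with Cyc1. Of 96 symbols that matched, 87 were protein coding, and Cox8b and Cox7a1, the muscle and brown fat isoforms, were left out, which gave 85 members of 32238 genes. By symbol, 39 belong to complex I, 4 to complex II, 9 to complex III, 16 to complex IV and 17 to complex V. Each of the 85 also passed the filter on low counts and was tested.

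The groups were wild-type (WT) mice on normal chow (NCD), macrophage-specific Bnip3 knockout (MKO) mice on NCD, WT mice on a high-fat diet (HFD) and MKO mice on HFD, with 3 biological replicates in each and 12 libraries in all. Diets were given for 12 weeks to mice aged 8 weeks at the start. The product of Bnip3 sits on mitochondria and serves as a receptor for their removal by autophagy. The driver of the macrophage deletion, the strain, and whether the WT mice carry a floxed allele or a Cre are not given in the sources used here.

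Oxidative phosphorylation uses 5 complexes of the inner mitochondrial membrane. Complexes I and II pass electrons from NADH and succinate to ubiquinone, complex III passes them on to cytochrome c, complex IV reduces oxygen, and complex V, the ATP synthase, uses the proton gradient built by complexes I, III and IV. Most subunits are encoded in the nucleus and a few by mitochondrial DNA, and in white fat the machinery oxidises fuel and supplies ATP for lipid synthesis.

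Library totals ran from 52.9 to 72.7 M counts. The library of MKO NCD replicate 2 stood apart, with 57.3% of genes at 0 against 15.6 to 38.3% in the others, and with 702 genes at 0 that had at least 100 counts in every other library. Its values are therefore given with and without it where a result rests on it. Markers of the epididymis summed to a level, in CPM (counts scaled to the size of the library), of 5326 to 6400 in the WT NCD libraries and to 16.8 CPM or less in all others, and skeletal muscle markers to 341 CPM in WT NCD replicate 1 against 11.1 to 62.4 CPM elsewhere. All 10 adipocyte markers were present in the table, with summed levels of 14075 to 35180 CPM over the libraries. Bnip3 itself was at 392, 568 and 475 CPM in the WT NCD libraries, 547, 811 and 563 CPM in MKO NCD, 418, 358 and 410 CPM in WT HFD and 446, 415 and 476 CPM in MKO HFD. Its level in whole tissue was thus not lower in the MKO libraries, and since the deletion is in macrophages alone, it does not check the labels.

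Levels between genes were compared in the deposited TPM, which scale counts by transcript length and library size. The members made up 1.75 to 2.80% of the summed TPM of a library, with the highest share in MKO NCD replicate 2 and at most 2.48% in the others. Without Cyc1, which is far higher in that library, the share was 1.70 to 2.46%, and 73 of the 85 had a mean of at least 100 TPM over the 12 libraries. Atp5b, the catalytic beta chain of ATP synthase, had the highest mean level at 1420 TPM, followed by Cox4i1, the common isoform of complex IV subunit 4, at 949 TPM. Median levels of the members were 149 TPM in complex I, 221 TPM in complex II, 251 TPM in complex III, 201 TPM in complex IV and 290 TPM in complex V. Ndufv1 and Ndufv2, which oxidise NADH in complex I, had mean levels of 155 and 132 TPM. Of the 12 members under 100 TPM, 5 were under 10 TPM: Cox4i2, Cox6b2, Cox8c, Cox6a2 and Cox7b2, all isoforms of complex IV that are known from lung, testis or muscle. Ndufb4b and Ndufb4c, at 15.4 and 16.8 TPM, are near-identical copies of Ndufb4, so their counts are uncertain.

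Summed over a complex, the subunit genes were lowest in WT mice on HFD. The summed level of the 39 complex I genes was 2569 ± 440 CPM in WT NCD, 2975 ± 291 CPM in MKO NCD, 2143 ± 197 CPM in WT HFD and 2786 ± 461 CPM in MKO HFD (mean ± SD, n = 3). Complex II, the 4 succinate dehydrogenase genes, summed to 774 ± 133, 1058 ± 117, 649 ± 50.2 and 869 ± 76.1 CPM in the same order of groups. Complex V summed to 3588 ± 587, 4564 ± 401, 3225 ± 214 and 4100 ± 510 CPM. 
Complex IV summed to 1509 ± 311 CPM in WT NCD, 1568 ± 216 CPM in MKO NCD, 1155 ± 131 CPM in WT HFD and 1572 ± 399 CPM in MKO HFD. Without MKO NCD replicate 2 the MKO NCD mean of complex IV was 1494 CPM, below that of WT NCD. Complex III without Cyc1, which 1 library dominated, summed to 879 ± 171, 1040 ± 101, 760 ± 53.7 and 1013 ± 196 CPM. In each of these 5 sums in CPM every MKO HFD library lay above every WT HFD library. In summed TPM the same held for complexes II and V, whereas for complexes I, IV and III without Cyc1 the 2 groups overlapped. The ratio of the MKO HFD to the WT HFD mean ran from 1.27 for complex V to 1.36 for complex IV, and on the TPM scale from 1.13 to 1.25 for the same complexes. On NCD the MKO to WT ratio in summed TPM was 0.998 for complex I, 0.922 for complex IV and 0.997 for complex III without Cyc1. It was 1.17 for complex II and 1.08 for complex V. These sums are descriptions and were not tested.

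**Figure D1:**
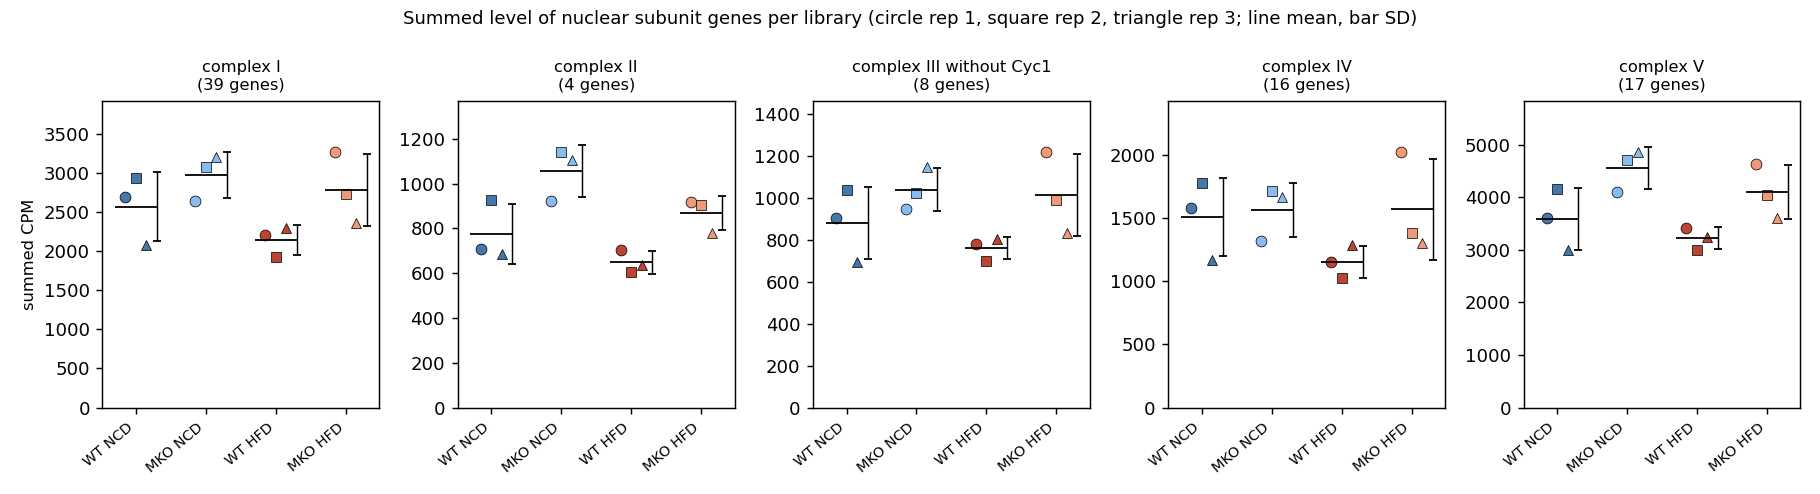
Summed CPM of the nuclear subunit genes of each complex in the 12 libraries, with 1 panel per complex, groups on the x axis, and the mean and SD of 3 replicates as a line and bar. WT HFD has the lowest mean in each panel, and WT NCD replicate 3 lies below the other WT NCD libraries.

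HFD against NCD in WT gave the most calls among the members. Under the quasi-likelihood test of edgeR, with p adjusted by Benjamini-Hochberg over the 20297 genes tested, 5 members fell and 2 rose, with 78 not past the threshold of 0.05. Over all genes 8.28% were called lower and 9.5% higher, so the 5 and 2 of 85 are below the background. Without MKO NCD replicate 2 in the fit, 9 members were called lower and 3 higher, against 16.3% and 15.1% of all genes. The members' median log2 fold change was -0.28, with 65 of 85 below 0, against a median of -0.09 over all genes. It was -0.15 without WT NCD replicate 2 and -0.41 without WT NCD replicate 3. Their groups did not overlap for 17 members that were lower and 4 that were higher on HFD, against backgrounds of 24.2% and 22.8% of all genes.

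The member with the smallest p was Atp5g1 (RefSeq GRCm38.p6, chr11:96072793-96075694), 1 of 3 genes for the c subunit that forms the rotor ring of ATP synthase. It was measured at 70.6, 61.6 and 41.8 CPM in WT NCD against 34.7, 28.5 and 34.6 CPM in WT HFD. All WT HFD libraries lay below all WT NCD libraries, the log2 fold change was -0.83 (SE 0.17), and the adjusted p by edgeR was 0.00694. Atp5g1 was called in 12 of 12 fits that each left out 1 library and was the sole member called lower with a replicate block.

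The 3 c subunit genes encode the same mature protein behind different import sequences. Their promoters are shown because the levels of the 3 genes are compared further on. The sequences are RefSeq promoter windows on GRCm38.p6, 250 bases before to 50 after a start site, read 5′ to 3′ on the gene's strand. That site need not be the outer end of the gene as listed. Atp5g3 runs to 73912464, beyond its window, and Atp5g1 ends at 96075694, within its window but not at the site used. Motifs are described for the windows printed. Capitals mark the core motif of NRF1, a transcription factor known to control many respiratory genes, which reads GCGCA, any base, then GCGC, and which was searched on both strands. Atp5g1 (chr11:96075582-96075881, minus strand) holds none, Atp5g2 (chr15:102670998-102671297, minus strand) holds 1 and Atp5g3 (chr2:73911277-73911576, minus strand) holds 1.
Atp5g1: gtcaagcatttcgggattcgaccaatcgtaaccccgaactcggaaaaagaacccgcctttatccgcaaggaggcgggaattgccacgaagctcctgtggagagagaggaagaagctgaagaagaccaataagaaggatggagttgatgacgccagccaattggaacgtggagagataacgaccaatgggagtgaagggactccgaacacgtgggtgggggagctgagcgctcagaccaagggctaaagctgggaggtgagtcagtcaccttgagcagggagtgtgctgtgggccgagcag
Atp5g2: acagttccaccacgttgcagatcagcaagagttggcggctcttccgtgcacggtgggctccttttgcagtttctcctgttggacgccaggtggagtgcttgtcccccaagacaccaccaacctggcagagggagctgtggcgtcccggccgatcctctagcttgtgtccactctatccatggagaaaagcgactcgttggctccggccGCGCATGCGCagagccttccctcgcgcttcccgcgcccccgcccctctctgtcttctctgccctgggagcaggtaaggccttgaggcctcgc
Atp5g3: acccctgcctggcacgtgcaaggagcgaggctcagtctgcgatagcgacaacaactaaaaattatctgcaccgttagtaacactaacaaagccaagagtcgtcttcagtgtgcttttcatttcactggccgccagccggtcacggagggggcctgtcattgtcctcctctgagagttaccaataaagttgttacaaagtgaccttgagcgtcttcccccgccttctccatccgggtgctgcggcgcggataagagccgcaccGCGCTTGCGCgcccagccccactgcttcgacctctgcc
The RefSeq table held a window for 67 of the 85 members. Of these, 16 (23.9%) held the NRF1 core, against 4.78% of all 27025 windows, and 16 (23.9%) held CCGGAAG, the core letters of ETS factors such as GABP, on either strand, against 9.12%. At least 1 of the motifs was in 41.8% of the members' windows and 13.0% of all. The median GC content was 57.3% in the members' windows and 52.7% in all. A match is a description of letters and not a bound site.

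The other members that fell on HFD in WT belong to complexes I and IV. Ndufb11 (chrX:20615326-20617619), an accessory subunit of the membrane arm of complex I, was at 78.8, 93.0 and 54.8 CPM in WT NCD against 49.5, 37.7 and 49.7 CPM in WT HFD. Its log2 fold change was -0.73 (SE 0.19, adjusted p by edgeR 0.0237). Ndufs7 (chr10:80249105-80256794), the core subunit that holds the iron-sulfur cluster next to the quinone site, was at 49.3, 62.7 and 38.0 CPM in WT NCD against 33.4, 26.0 and 33.4 CPM in WT HFD. Its log2 fold change was -0.69 (adjusted p by edgeR 0.0429). Ndufb8 (chr19:44548571-44555442), an accessory subunit whose protein is often used as a marker of assembled complex I, was at 146, 169 and 118 CPM in WT NCD against 102, 94.3 and 104 CPM in WT HFD. Its log2 fold change was -0.53 (adjusted p by edgeR 0.0440). Cox6c (chr15:35931976-35938246), a small subunit of complex IV, was at 205, 166 and 107 CPM in WT NCD against 84.5, 74.0 and 98.7 CPM in WT HFD. Its log2 fold change was -0.90 (adjusted p by edgeR 0.0406). In each of these 4 genes the groups did not overlap, and the lowest WT NCD library was replicate 3. Without WT NCD replicate 1 the fit called 1 member lower, without WT NCD replicate 2 also 1, without WT HFD replicate 2 also 1, and without WT NCD replicate 3 it called 15. Over all genes, in either direction, calls were 2606, 2610 and 2808 without WT NCD replicates 1, 2 and 3, against 3610 in the main fit.

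The 2 members that rose on HFD in WT were Ndufb3 and Ndufa4l2. Ndufb3, an accessory subunit of the membrane arm of complex I, was at 69.8, 78.3 and 55.8 CPM in WT NCD against 107, 89.6 and 108 CPM in WT HFD (log2 fold change 0.58, adjusted p by edgeR 0.0471). Ndufa4l2, a hypoxia-induced relative of Ndufa4, was at 5.44, 4.21 and 5.68 CPM in WT NCD against 7.64, 8.15 and 10.9 CPM in WT HFD (log2 fold change 0.80, adjusted p by edgeR 0.0499). Its abundant relative Ndufa4, now known as a component of complex IV, was at 188, 214 and 119 CPM in WT NCD against 120, 104 and 131 CPM in WT HFD, with an adjusted p of 0.12 by edgeR. Ndufb3 was called in 4 and Ndufa4l2 in 1 of the 12 fits that left out a library.

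Most catalytic subunits had estimates below 0 without passing the test. Of the 21 core subunits followed in every comparison, 18 had an estimate below 0 on HFD in WT, and Ndufs7 was the only one past the threshold. Log2 fold changes were -0.48 for the iron-sulfur subunit Sdhb, -0.38 for the complex III core protein Uqcrc2, -0.41 for Cox4i1 and -0.42 for Atp5c1, the central stalk of ATP synthase, with adjusted p by edgeR from 0.095 to 0.15.

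In WT the same contrast held large differences in cell markers. Macrophage markers summed to 409 to 1054 CPM in WT NCD against to 3147 to 4785 CPM in WT HFD, with 9 of 10 called higher, and adipocyte markers to 18545 to 33448 CPM and to 14075 to 18333 CPM, with 5 of 10 called lower. Of the 5 epididymis markers tested, 4 were called lower. In whole tissue, fewer cells of a type and less RNA per cell cannot be told apart, and the part of these markers in the members' values was not tested. The summed CPM of the members without Cyc1, divided by the summed CPM of the adipocyte markers, was 0.324 to 0.512 in WT NCD, 0.332 to 0.387 in MKO NCD, 0.452 to 0.515 in WT HFD and 0.430 to 0.468 in MKO HFD. By this ratio, chosen after the data were seen, the WT HFD and MKO HFD ranges overlapped. The marker sum weighs its genes by level, and Fabp4 alone was at 6486 to 14111 CPM over the libraries. Cfd was at 4522 to 11527 CPM in WT NCD, 205 to 511 CPM in WT HFD and 881 to 1974 CPM in MKO HFD. The ratio is therefore not a measure of adipocyte content alone.

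**Figure D2:**
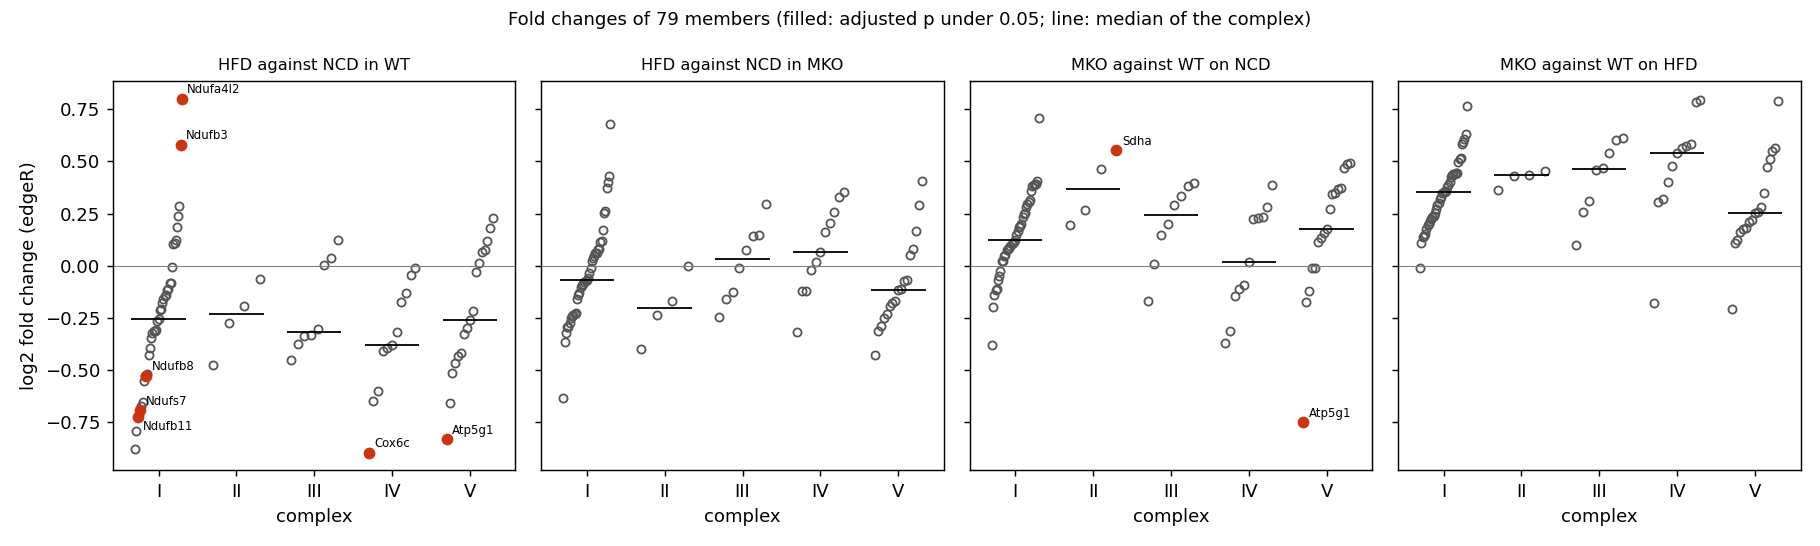
Log2 fold changes of 79 members by complex in 4 comparisons, with filled points for adjusted p under 0.05 and a line at the median of each complex. Cyc1 and the 5 members under 10 TPM are left out of the plot, which shows most members below 0 for HFD against NCD in WT and above 0 for MKO against WT on HFD.

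MKO against WT on HFD gave estimates above 0 in nearly the whole family, and none passed the adjusted test. Of 85 members, 78 had a log2 fold change above 0, with a median of 0.35, whereas over all genes 48.4% were above 0 and the median was 0. No member was called higher or lower by edgeR, with backgrounds of 1.34% and 2.24% of all genes. Unadjusted, 30 of 85 members had a p under 0.05, against 3060 of the 20297 genes tested. Without MKO NCD replicate 2, 1 was called higher and 0 lower, against 2.58% and 4.74%. The MKO libraries lay wholly above the WT libraries for 33 members and wholly below for 2, against backgrounds of 15.8% and 17.3% of all genes. Under DESeq2 9 members were called higher, and 9 in a fit of only these 6 libraries, with 3 genes in both, Ndufb8 and Uqcrfs1 among them. Over all genes, in either direction, DESeq2 called 1740 and the 6-library fit 2260, against 725 in the main fit.

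All 4 genes of succinate dehydrogenase, the enzyme shared with the citric acid cycle, separated the groups on HFD. Sdha, the flavoprotein, was at 378, 328 and 335 CPM in WT HFD and 507, 477 and 420 CPM in MKO HFD. Sdhb, the iron-sulfur protein, was at 92.1, 80.2 and 82.4 CPM in WT HFD and 120, 123 and 102 CPM in MKO HFD. Sdhc, a membrane anchor, was at 103, 86.4 and 100 CPM in WT HFD and 133, 140 and 124 CPM in MKO HFD. The lowest MKO library lay above the highest WT library in each, and log2 fold changes ran from 0.36 for Sdhd to 0.46 for Sdhc, with adjusted p by edgeR from 0.14 to 0.27.

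In complex I, Ndufb8 had the smallest p of all members. It was at 102, 94.3 and 104 CPM in WT HFD and 171, 159 and 122 CPM in MKO HFD, with a log2 fold change of 0.59 (SE 0.16) and an adjusted p by edgeR of 0.0751. Ndufb5, an accessory subunit, was at 52.2, 35.7 and 50.6 CPM in WT HFD and 69.5, 63.5 and 62.8 CPM in MKO HFD, with a log2 fold change of 0.50 (adjusted p by edgeR 0.0939). Ndufs1, the large iron-sulfur subunit of the NADH arm, was at 121, 123 and 124 CPM in WT HFD and 175, 182 and 140 CPM in MKO HFD (adjusted p by edgeR 0.0992). Its 3 WT libraries were nearly level, and without MKO NCD replicate 2 it passed the threshold, with an adjusted p by edgeR of 0.0394.

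In complexes III to V the core subunits stood likewise. Uqcrfs1, the Rieske iron-sulfur protein, was at 109, 86.4 and 102 CPM in WT HFD and 158, 149 and 125 CPM in MKO HFD, with a log2 fold change of 0.54. Cox5a was at 50.4, 45.9 and 54.3 CPM in WT HFD and 85.8, 74.7 and 63.4 CPM in MKO HFD, with a log2 fold change of 0.57. Atp5b was at 1108, 885 and 982 CPM in WT HFD and 1616, 1387 and 1240 CPM in MKO HFD, with a log2 fold change of 0.51. None of the 3 passed the test, with adjusted p by edgeR of 0.15, 0.17 and 0.13. Over the 21 core subunits every estimate was above 0, from 0.15 for Ndufs8 to 0.79 for Cox5b, and in 16 the MKO libraries lay wholly above the WT libraries, against 15.8% of all genes. Cox5b was at 45.2, 45.6 and 62.4 CPM in WT HFD and 149, 59.1 and 55.8 CPM in MKO HFD, with MKO HFD replicate 1 far above the other 5 libraries. The same library was the highest for Cox8a, at 321 CPM against 170 and 168 CPM in the other MKO HFD libraries. The members with the smallest p among those below 0 were Cox6a2, Cox8c and Cox7a2l. Cox7a2l, a factor of complex III and IV supercomplexes, was at 126, 119 and 118 CPM in WT HFD and 107, 100 and 113 CPM in MKO HFD (adjusted p by edgeR 0.63).

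The cell markers moved in this contrast too. Macrophage markers summed to 513 to 1274 CPM in MKO HFD against 3147 to 4785 CPM in WT HFD, with 9 of 10 called lower, and adipocyte markers to 20694 to 26127 CPM against 14075 to 18333 CPM, with 6 of 10 called higher. Their part in the members' values was not tested. Without MKO HFD replicate 1 the members' median was 0.20, with 69 of 85 above 0.

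On NCD, MKO against WT gave 3 calls among the members. By edgeR, 2 members were called higher and 1 lower, against backgrounds of 2.22% and 2.13% of all genes. Without MKO NCD replicate 2, 2 were called higher (Ndufs1 and Cyc1) and 0 lower, against 1.95% and 2.81%. The members' median log2 fold change was 0.18 and that of all genes -0.14. The members' value was 0.29 without WT NCD replicate 2 and 0.00 without WT NCD replicate 3. The groups did not overlap for 13 members that were higher and 3 that were lower in MKO, against backgrounds of 9.63% and 15.6%. Of the 21 core subunits, 20 had an estimate above 0, with a median of 0.35, against 40.5% of all genes above 0. In 7 of the 21 the MKO libraries lay wholly above the WT libraries. WT NCD was the group with by far the most epididymis markers, of which 3 of 5 tested were called lower in MKO. Adipocyte markers summed to 18545 to 33448 CPM in WT NCD and to 25732 to 35180 CPM in MKO NCD, with 1 of 10 called higher and a median log2 fold change of 0.60. The part of these markers was not tested.

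Sdha (chr13:74322255-74350240) was at 387, 481 and 392 CPM in the WT NCD libraries and at 523, 697 and 629 CPM in the MKO NCD libraries. All MKO libraries lay above all WT libraries, and the log2 fold change was 0.55 (SE 0.14, adjusted p by edgeR 0.0494). Without MKO NCD replicate 2 it was 0.46 and the adjusted p 0.110. Atp5g1, at 70.6, 61.6 and 41.8 CPM in the WT libraries, was at 33.2, 36.1 and 34.1 CPM in the MKO libraries, with a log2 fold change of -0.75 (SE 0.17, adjusted p by edgeR 0.0349), and without MKO NCD replicate 2 of -0.78 with an adjusted p of 0.0521. Atp5g1 was called in 2 of the 12 fits that left out a library. The third call was Cyc1, described further on with and without MKO NCD replicate 2. Atp5g3 followed, with a log2 fold change of 0.49 (adjusted p by edgeR 0.0791), and among the lower members Cox7a2l at -0.37 (adjusted p by edgeR 0.137) and Cox6b2 (adjusted p by edgeR 0.519).

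The promoter window of Sdha, chr13:74350191-74350490 on the minus strand, is shown because it held 3 NRF1 cores, marked in capitals as above.
Sdha: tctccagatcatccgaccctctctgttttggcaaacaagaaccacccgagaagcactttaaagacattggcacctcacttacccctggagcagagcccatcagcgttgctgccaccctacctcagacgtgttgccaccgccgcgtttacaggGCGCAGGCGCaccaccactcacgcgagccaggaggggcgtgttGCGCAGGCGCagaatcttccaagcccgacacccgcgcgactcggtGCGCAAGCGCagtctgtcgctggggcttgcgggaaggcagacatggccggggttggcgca
Of the members called on HFD in WT, Ndufb11, Ndufb3, Ndufb8, Ndufs7 and Atp5g1 held neither motif in their windows, and Cox6c and Ndufa4l2 are named only. The window of Ndufs7, chr10:80249199-80249498, lies inside the gene, which starts at 80249105.

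Among the c subunit genes, Atp5g3 was the most abundant, at 522 ± 78.9 TPM in WT NCD, 648 ± 16.1 TPM in MKO NCD, 520 ± 23.6 TPM in WT HFD and 596 ± 30.3 TPM in MKO HFD (mean ± SD, n = 3). Atp5g1 was at 162 ± 37.9, 85.6 ± 3.60, 86.2 ± 6.24 and 67.4 ± 6.94 TPM in the same order. The share of Atp5g1 in the summed TPM of the 3 genes was 18.7, 16.1 and 16.1% in WT NCD, 9.34, 8.30 and 8.13% in MKO NCD, 11.1, 10.5 and 11.1% in WT HFD and 7.12, 7.83 and 8.85% in MKO HFD. WT NCD stood above all other groups, WT HFD came next, and the 2 MKO groups overlapped. Epididymis markers summed to 5326 to 6400 CPM in WT NCD and to 16.8 CPM or less in all other libraries. Their part in the higher share of WT NCD was not tested.

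**Figure D3:**
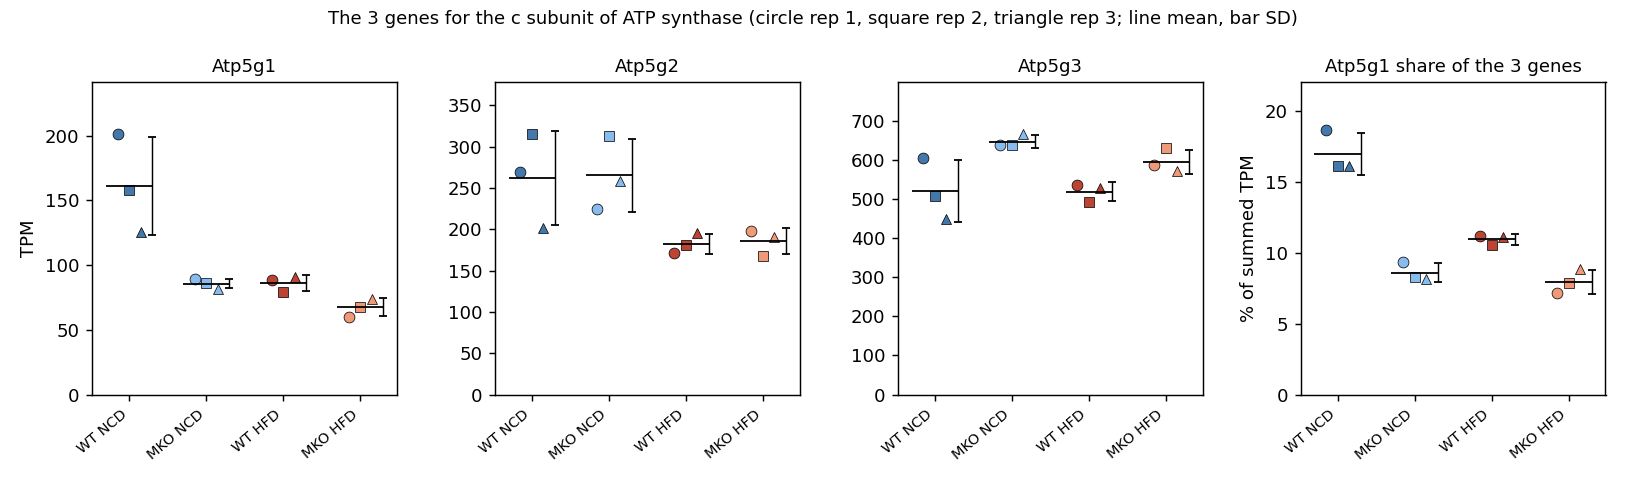
Level in TPM of the 3 c subunit genes, and the share of Atp5g1 in their sum in percent, in the 12 libraries by group, with the mean and SD of 3 replicates. The Atp5g1 share is 16.1% or more in the WT NCD libraries and 11.1% or less in all others.

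In MKO mice the diet comparison gave no call among the members by edgeR, with backgrounds of 1.04% called higher and 0.966% called lower over all genes. Unadjusted, 6 of 85 members had a p under 0.05, against 3457 of the 20297 genes tested. DESeq2 called 1 member higher and 3 lower, and 1731 genes in either direction over the whole table, against 408 by edgeR. The members' median log2 fold change was -0.07, with 34 above and 51 below 0, and that of all genes was 0.06. The members' median was -0.23 without MKO HFD replicate 1 and 0.02 without MKO HFD replicate 3, so that its direction rests on single libraries. The groups did not overlap for 1 member that was higher and 4 that were lower on HFD, against backgrounds of 15.1% and 9.17%. Ndufb3 was at 66.4, 75.5 and 75.7 CPM in MKO NCD and 147, 110 and 90.8 CPM in MKO HFD, with a log2 fold change of 0.68 (adjusted p by edgeR 0.0903). Atp5md and Atp5mpl, small subunits of the membrane part of ATP synthase, followed at 0.41 and 0.29. Among those below 0, Ndufs7 had a log2 fold change of -0.64 (adjusted p by edgeR 0.163), Cyc1 of -2.32 (0.177) and Sdha of -0.40 (0.183).

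The interaction of diet and genotype passed the test for no member by edgeR, against 0.118% of all genes called higher and 0.143% lower. Unadjusted, 5 of 85 members had a p under 0.05, against 2652 of the 20297 genes tested. Those with the smallest p above 0 were Ndufa1, an accessory subunit of complex I, at 0.96, Cox6c at 0.88 and Atp5g1 at 0.54, with adjusted p by edgeR of 0.336, 0.344 and 0.364. Those below 0 were Cyc1 at -3.20, Ndufa4l2 at -0.72 and Atp5o, which links the stalks of ATP synthase, at -0.34. A diet effect that differs between WT and MKO mice was therefore not shown for any member.

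Cyc1 (chr15:76343513-76346260) encodes cytochrome c1, the heme protein that hands electrons from complex III to cytochrome c. It was at 122, 141 and 137 CPM in WT NCD, 295, 3756 and 395 CPM in MKO NCD, 287, 298 and 149 CPM in WT HFD and 217, 390 and 281 CPM in MKO HFD. MKO NCD replicate 2 was 9.52-fold above the highest other library, with 233978 counts against 8145 to 22527, and Cyc1 took 24.4% of that library's member counts against 1.27 to 3.94% in the others. Among the other 11 libraries Cyc1 spanned 3.24-fold. The highest value of any other member in that library over its highest other library was 1.22-fold.

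The neighbours of Cyc1 on the chromosome did not share its level in that library. Gpaa1 was at 19.2 CPM against 19.5 to 29.9 CPM in the others, Sharpin at 19.4 against 18.4 to 26.0, Exosc4 at 19.1 against 11.1 to 17.4 and Maf1 at 37.3 against 29.6 to 57.2 CPM. In the same library 13 genes with at least 1000 counts were over 5 times every other library, and Cyc1 was the only member among them. WT NCD replicates 1 and 3 held 85 and 15 such genes, none a member, and the other libraries 0 to 3. With all libraries the log2 fold change of Cyc1 in MKO against WT on NCD was 3.48 (SE 0.83, adjusted p by edgeR 0.0435). Without MKO NCD replicate 2 it was 1.38 (SE 0.30, adjusted p by edgeR 0.0331), so that the direction and the call remained in that fit. Over the 12 fits that each left out 1 library, the estimate ran from 1.38 to 3.96. Cyc1 was called in 3 of these 12, with adjusted p by edgeR from 0.0225 to 0.140. In WT, HFD against NCD gave 0.88 with an adjusted p by edgeR of 0.488 over all libraries. Without MKO NCD replicate 2 the adjusted p by edgeR was 0.0372, the only 1 of the 12 fits in which Cyc1 was called.

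**Figure D4:**
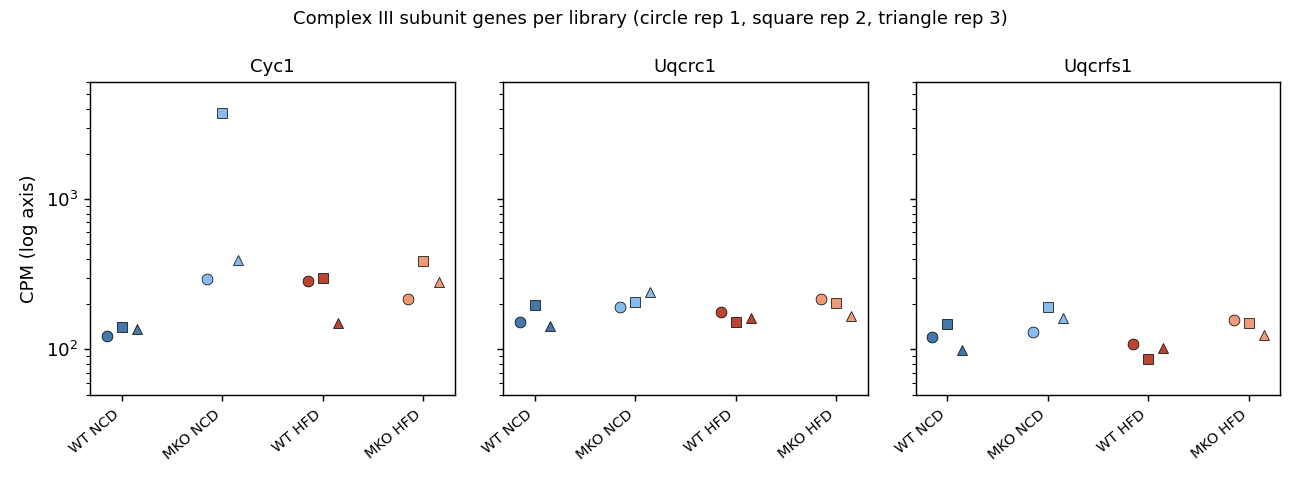
CPM of Cyc1 and of the complex III core subunits Uqcrc1 and Uqcrfs1 in the 12 libraries, on a log axis, with groups on the x axis. Cyc1 in MKO NCD replicate 2 is at 3756 CPM, and Uqcrc1 and Uqcrfs1 in the same library lie near their group.

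The 5 members under 10 TPM were not detected in MKO NCD replicate 2, the library with many genes at 0. Cox4i2, the hypoxia-responsive isoform of subunit 4 known from lung, had 0 counts there and 81 to 281 counts in every other library. Its share of the summed TPM of Cox4i1 and Cox4i2 was at most 1.20% in any library. Cox7b2, Cox8c and Cox6b2 are isoforms known from testis. Cox8c had 3, 55 and 104 counts in WT NCD, 5, 0 and 32 in MKO NCD, 5, 0 and 0 in WT HFD and none in MKO HFD. Cox7b2 had 0, 26 and 68 counts in WT NCD, 0, 0 and 11 in MKO NCD, 2, 0 and 0 in WT HFD and none in MKO HFD. Cox6b2 had 124, 176 and 140 counts in WT NCD, 40, 0 and 70 in MKO NCD, 27, 40 and 38 in WT HFD and 48, 36 and 8 in MKO HFD. The libraries with the most counts of Cox8c and Cox7b2 were also those with the highest level of 8 spermatid genes, a list chosen after these values were seen, which summed to 2.30, 140 and 221 CPM in WT NCD against 13.6, 0 and 85.5 CPM in MKO NCD, and to 6.16 CPM or less on HFD. Their part in these isoforms was not tested.

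Cox6a2, the isoform of subunit 6a known from heart, skeletal muscle and brown fat, had 0, 7 and 0 counts in WT NCD, 8, 0 and 0 in MKO NCD, 52, 68 and 25 in WT HFD and 0, 0 and 15 in MKO HFD. WT HFD lay above every other library, with an adjusted p by edgeR of 0.168 for HFD against NCD in WT and 0.533 for MKO against WT on HFD. The 7 brown adipocyte markers summed to 20.3 to 31.8 CPM in WT HFD, 12.0 to 18.0 CPM in WT NCD and 18.4 to 22.4 CPM in MKO HFD. In MKO NCD they summed to 24.1, 58.9 and 24.0 CPM, with the highest value in replicate 2, the library that stood apart. Without that library the highest sum was in WT HFD replicate 1, and the WT HFD range overlapped those of both MKO groups. Of the 7, 3 were called higher on HFD in WT and 0 lower, against 9.5% and 8.28% of all genes. Without MKO NCD replicate 2 in the fit, 4 were called higher and 1 lower, against 15.1% and 16.3%. In MKO against WT on HFD 0 of the 7 were called, against 1.34% of all genes called higher and 2.24% lower. Among them Ucp1, the uncoupling protein of brown fat, had 119, 80 and 29 counts in WT HFD and 0 to 22 in all others, whereas Ppargc1a was at 5.39, 2.97 and 3.40 CPM in WT HFD against 5.65, 6.67 and 12.9 CPM in WT NCD. Their part in the values of Cox6a2 was not tested. At such counts Cox6a2 remained at most 1.09% of the summed TPM of Cox6a1 and Cox6a2.

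The subunit genes share short transcripts, which the rule did not use. Of the 83 members with a length, the median was 732 bases (range 315 to 3171), against 2812 bases for all protein-coding genes tested. The 37 members of 700 bases or shorter differed between replicates of a group: in WT NCD replicate 3 their median log2 difference from the other 2 libraries was -0.65, and in MKO HFD replicate 1 it was 0.48. The 388 short genes of the whole table moved the same way in those libraries, by -0.30 and 0.18, and genes over 700 bases by 0.00 and -0.01. The 46 longer members were at -0.34 and 0.28. The part of transcript length in the members' values was not tested.

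**Figure D5:**
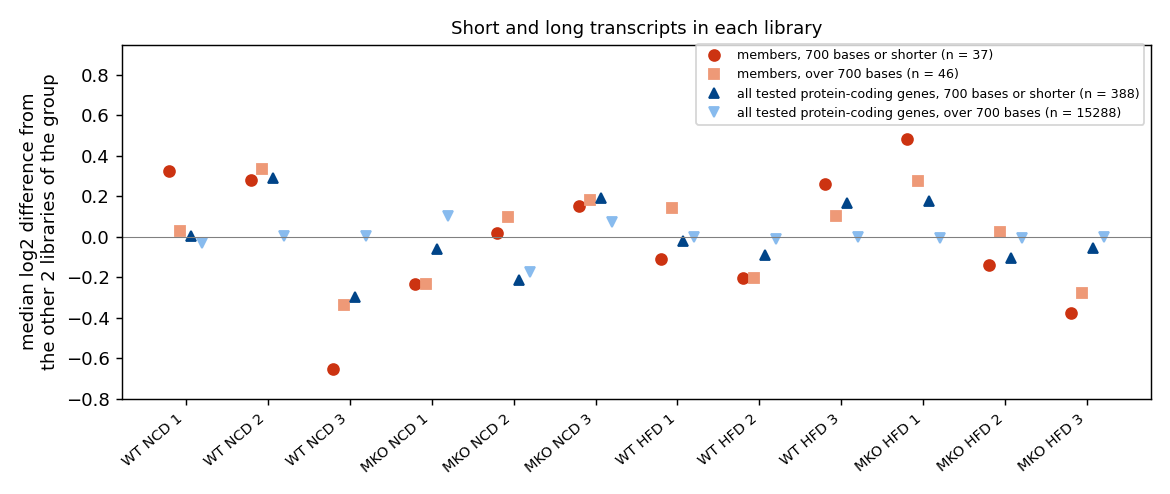
Median log2 difference of each library from the other 2 libraries of its group, for members and for all tested protein-coding genes, split at a transcript length of 700 bases. Short members are at -0.65 in WT NCD replicate 3 and at 0.48 in MKO HFD replicate 1, while long genes of the whole table are at 0.00 and -0.01 in those libraries.

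Other genes of the pathway were called too, in numbers that differed between the comparisons. In MKO against WT on NCD, 5 of 14 citric acid cycle genes were called higher and none lower, against 2.22% and 2.13% of all genes, among them Cs, citrate synthase, at 368, 382 and 345 CPM in the WT libraries and 587, 604 and 678 CPM in the MKO libraries (log2 fold change 0.77, adjusted p by edgeR 0.00607) and Idh3a at 0.86. Without MKO NCD replicate 2 the count was 4. Of 18 genes for mobile carriers and other electron input, 2 were called higher, Gpd2 and Etfdh, and of 45 assembly factors tested 1, Atpaf2. In MKO against WT on HFD, 0 of the 14 citric acid cycle genes and 0 of the 45 assembly factors were called. Of the 18 carriers 1, Gpd2, was called higher there, against 1.34% of all genes. Gpd2, the mitochondrial glycerol-3-phosphate dehydrogenase, was at 62.8, 67.9 and 63.6 CPM in the WT NCD libraries, 105, 150 and 133 CPM in MKO NCD, 27.4, 23.1 and 27.1 CPM in WT HFD and 51.9, 56.3 and 40.1 CPM in MKO HFD. It was higher in MKO on both diets, with log2 fold changes of 0.99 and 0.93, and lower on HFD in both genotypes, at -1.33 and -1.39, and passed the test in all 4 comparisons.

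On HFD in WT, 2 citric acid cycle genes were called higher (Idh3a at 0.93, Sucla2 at 0.64) and 1 lower (Suclg2), 3 assembly factors were called higher (Acad9, Atpaf2, Cox15) and 1 lower (Ndufaf3 at -1.07), and of the carriers 2 were called higher and 3 lower. Over all genes 9.5% were called higher and 8.28% lower in that comparison. Cycs, cytochrome c itself, was higher at 0.74 with an adjusted p by edgeR of 0.00396, as was Etfdh, and Gpd2, Coq8b and Coq4 were lower. Of 13 regulators of respiratory gene expression only Ppargc1b, a coactivator of mitochondrial genes, was called, lower on HFD in WT at -0.80 and in MKO at -1.63. Of the 13 mitochondrially encoded subunits, ND2 was called higher on HFD in WT at 0.85 and in MKO at 0.93, and ND5 in MKO against WT on HFD at 0.78. When MKO NCD replicate 2 was left out, no mitochondrially encoded subunit was called for HFD against NCD in MKO, and for HFD against NCD in WT 6 assembly factors were called higher and 2 lower, and 2 regulators higher and 2 lower, against 15.1% and 16.3% of all genes. The mitochondrially encoded subunits summed to 62841 to 72686 CPM in WT NCD, 83853 to 111251 CPM in MKO NCD, 67407 to 91542 CPM in WT HFD and 91322 to 138459 CPM in MKO HFD.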

How the data were processed

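RNA sequencing of gWAT gave 12 libraries, 3 biological replicates per group, grouped by the labels. Per the labels' protocols, RNA was isolated with Trizol and a stranded mRNA kit was used. The submitters' processing notes name mm10, HISAT2 2.1.0, bcl2fastq 2.20.0, Trimmomatic, DESeq2 and StringTie 1.3.4d. How strand and multi-mapped reads were counted is not given in the sources used here. The deposited counts are raw reads per gene per the file headers, and the deposited TPM values were used for levels between genes. 24 other per-library columns were not used.

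In R 4.3.3, edgeR 4.0.16 fitted all 12 libraries by group (TMM, filterByExpr, robust quasi-likelihood), tested 5 comparisons over 20297 genes and adjusted p by Benjamini-Hochberg, with a threshold of 0.05. SE is the absolute log2 fold change over the square root of F. CPM uses TMM sizes. Length deviations use log2(CPM + 0.5). Alternatives were RLE sizes, no filter, DESeq2 1.42.0, limma-voom 3.58.1, a replicate block, no robust estimation, 6-library fits and leaving out each library. Positions, promoters and biotypes are from RefSeq GRCm38.p6, and transcript lengths from GENCODE.

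Named are the core subunits, the alternative isoforms, and the 3 members with the smallest p in each direction per comparison, except genes not reported here. Any other gene was picked with its values in view. The members and lists were chosen with earlier results of these data known. On simulated counts over 20297 genes for HFD against NCD in WT, the test recovered 4.48% of 1.5-fold, 11.9% of 2-fold and 43.9% of 4-fold changes with 2 false calls. The changed genes, 67, 67 and 66 per fold, were drawn at random from all genes tested. The rates therefore do not measure how often a change in the members would be found.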

Additional observations from a re-analysis of the deposited data

How the results depend on the processing

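For HFD against NCD in WT, 2 members were called higher and 5 lower. The counts were 0 and 7 with RLE sizes, 0 and 3 without a filter, 2 and 16 with DESeq2, 3 and 4 with limma-voom, 1 and 5 without robust estimation, and 3 and 10 in the 6-library fit. Leaving out 1 library gave 0 to 3 higher and 1 to 15 lower. The fit that called 15 lower, without WT NCD replicate 3, called 2808 genes over the whole table, in either direction. For MKO against WT on NCD, with 2 higher and 1 lower, they were 1 and 1 with RLE sizes, limma-voom and no robust estimation, 0 and 1 without a filter, 5 and 2 with DESeq2 and 0 and 0 in the 6-library fit, and leaving out 1 library gave 0 to 2 and 0 to 1. For MKO against WT on HFD, with 0 called, DESeq2 and the 6-library fit each called 9 higher, and leaving out 1 library 0 to 2. For HFD against NCD in MKO, DESeq2 called 1 higher and 3 lower. The calls over all genes, in either direction, changed with the setting too. For HFD in WT they were 3610 in the main fit, 5214 with DESeq2 and 5222 in the 6-library fit. In the same order they were 882, 2212 and 53 for MKO on NCD and 725, 1740 and 2260 for MKO on HFD. For HFD in MKO they were 408, 1731 and 41. With RLE sizes, no filter, limma-voom and no robust estimation they were 3615, 2998, 4099 and 3576 for HFD in WT. For MKO on NCD these settings gave 742, 639, 1417 and 858. The causes were not tested.

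Alternatives added after seeing the data left out MKO NCD replicate 2. With DESeq2 they called 3 higher and 26 lower for HFD in WT, 7 and 1 for MKO on NCD, 14 higher for MKO on HFD and 1 higher for HFD in MKO, and with RLE sizes 3 and 12, 1 and 1, and 1 higher. In the edgeR fit without that library, 15.1% of all genes were called higher and 16.3% lower for HFD in WT. The shares were 1.95% and 2.81% for MKO on NCD and 2.58% and 4.74% for MKO on HFD. Those of the added DESeq2 and RLE fits are not given, so the member counts of these fits stand without a background. Without a filter the median over all genes moved from -0.09 to -0.27 for HFD in WT and from -0.14 to -0.39 for MKO on NCD. Cox8c in MKO against WT on HFD, at -3.92, ranged from -4.48 to 0 when 1 library was left out, with 0 without WT HFD replicate 1, the library that held its counts in that contrast.

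With a replicate block, 0 members were called higher and 1 lower for HFD in WT, and 0 and 0 for MKO on NCD. Over all genes, in either direction, that fit called 2819 for HFD in WT and 482 for MKO on NCD. Deviations of same-numbered libraries from their group means had correlations of -0.14 to 0.16, with 3 of 18 over 0.1. Differently numbered pairs had -0.18 to 0.18, with 6 of 36 over 0.1. A pairing by number was thus not seen, but these correlations cannot exclude a shared batch, litter or cage. Counting error is largest for the 5 members under 10 TPM, with 0 to 281 counts per library.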
